A study of Rattus norvegicus with 10 samples.

Results

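Actb, the gene of cytoplasmic beta-actin, and 9 genes whose proteins work with cytoplasmic actin were followed in RNA from the fat layer of rat milk. The 10 listed genes were Actb, the second cytoplasmic actin Actg1, the actin-binding proteins Cfl1, Pfn1, Tmsb4x and Tmsb10, the myosin light chains Myl6 and Myl12a, the Arp2/3 complex subunit Arpc1b and the membrane linker Ezr. They were matched by gene symbol to the deposited expression table of 16748 genes, where 9 of the 10 had a row. The level of Actg1 was not analysed here. The list was chosen by a measured value, since Actb was among the genes with the smallest p values for a higher level in enriched housing. The difference between housing groups in these 9 genes is therefore given as a description with no test.

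Cytoplasmic actin is kept as a pool of monomers and as filaments that grow at one end and are taken apart at the other. Profilin feeds monomers to growing ends, the thymosins hold monomers in reserve, cofilin severs old filaments, the Arp2/3 complex starts branches, and nonmuscle myosin II pulls on filaments with the help of its light chains. In the lactating mammary gland, actin lies beneath the apical membrane of the secretory cells, from which milk fat globules bud with a coat of membrane and at times a crescent of cytoplasm that carries RNA.

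The milk came from Sprague-Dawley dams, all wild type, that lived either in environmental enrichment (EE), a large cage on several levels with changing toys, or in standard laboratory housing (SD). SD dams were housed alone from shortly before birth, while EE dams kept contact with cage mates through a divider. All litters were set to equal size and cross-fostered, so that every dam nursed pups of both origins, and milk was taken on postnatal day 10 under isoflurane after an oxytocin injection. Each group had 5 libraries of polyadenylated RNA, which the labels call biological replicates. Nothing in the sources used here says which dams shared a cage, so the tests take into account only variation from library to library, not from cage to cage.

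The deposited values were converted to normalized counts, that is, read counts divided by a size factor for each library. Estimated depth ran from 43361276 reads in SD replicate 4 to 70096987 in SD replicate 2, and the counting error of genes as abundant as the members is small beside the spread between libraries. SD replicate 4 stood apart from the other SD libraries: its count of the luminal keratin Krt18 was 2.00 times their mean, and those of the basal keratins Krt5 and Krt14 were 7.51 and 10.02 times. The authors' mean values match 9 libraries without it, so results are given over all 10 libraries, with the value over these 9 beside those that it moves. The tissue label was checked against defining genes: Csn2 and Lalba, which encode milk proteins, were abundant in every library. The fibroblast genes Col3a1, Dcn and Lum and the adipocyte gene Plin1 were at 0 in every library. Other listed genes of these types had reads. The fibroblast gene Pdgfra averaged 5.24 normalized counts in SD and 0.57 in EE, and the adipocyte gene Cfd 326 and 155. The genes at 0 alone therefore do not show that these cell types were absent. In bulk RNA, fewer cells of a type and less RNA per cell cannot be told apart.

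Actb (gene ID 81822, chromosome 12) was the member with the widest gap between housing groups. Its normalized count was 31387, 25448, 23202, 23960.3 and 24164 in SD replicates 1 to 5, and 35958, 40486, 34367, 38047 and 34450.2 in EE replicates 1 to 5. All 5 EE libraries lay above all 5 SD libraries, and SD replicate 1 was the highest of its group. The means were 36661 ± 2607 in EE (standard deviation, n = 5) and 25632 ± 3317 in SD (standard deviation, n = 5), a ratio of 1.43, or 1.41 without SD replicate 4. On the deposited log2 scale the difference was 0.52 with a standard error of 0.11, and 0.50 with a standard error of 0.11 over 9 libraries. This value, with the spread behind it, is what chose the list: by p value Actb stood at rank 4 of the 6236 genes with a positive difference over 10 libraries and at rank 11 of 6437 over 9.

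**Figure D1:**
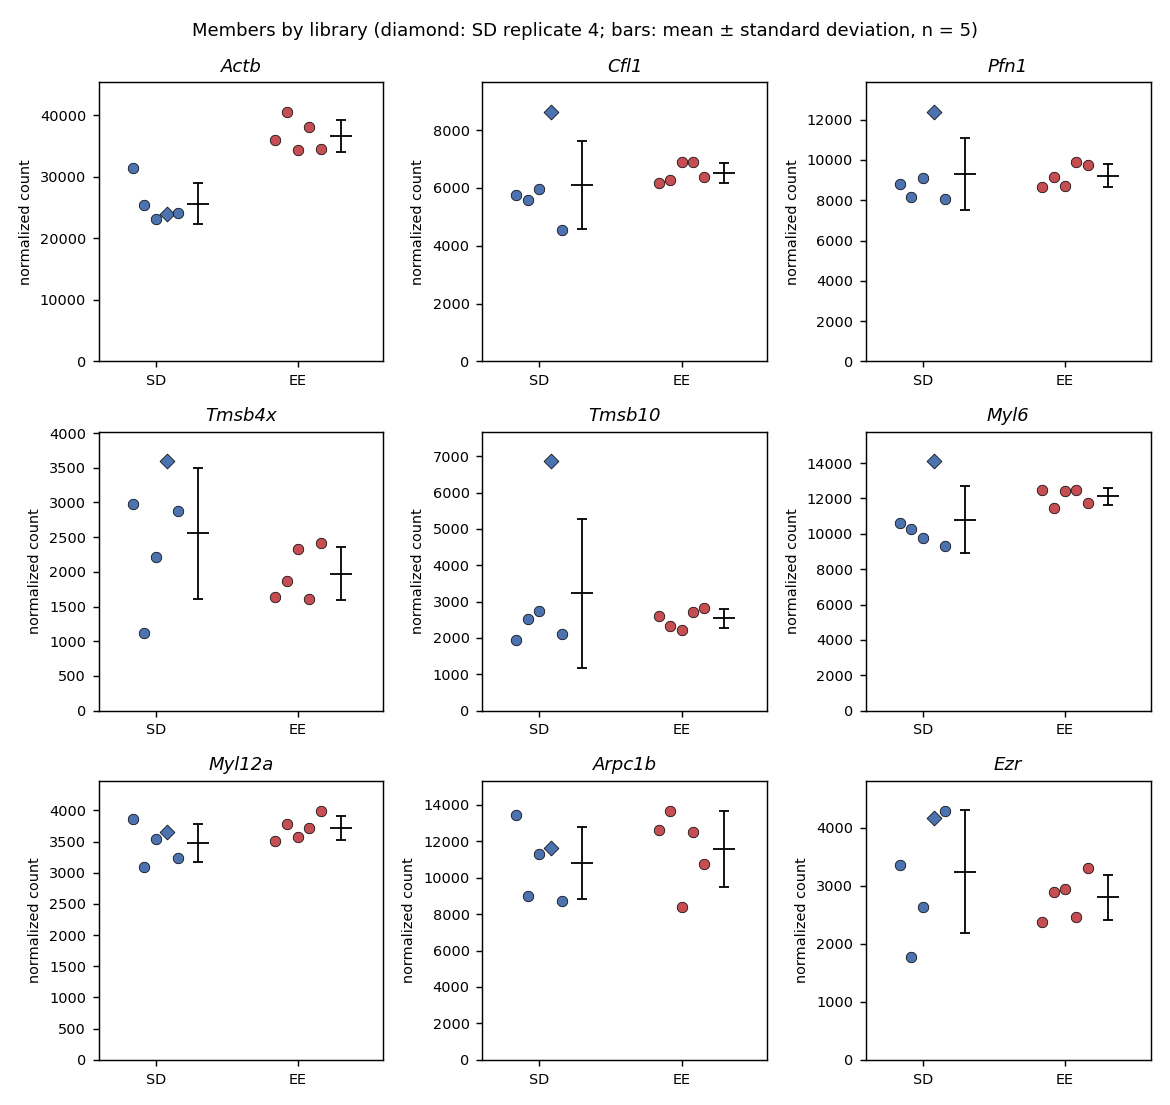
Normalized counts of the 9 members (vertical axes, from 0) in the SD and EE libraries, 1 point per library, with the mean and standard deviation of each group beside the points and SD replicate 4 as a diamond. Actb is the member in which all EE points lie above all SD points, and SD replicate 4 is the top point for Cfl1, Pfn1, Tmsb4x, Tmsb10 and Myl6.

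Non-overlap of this kind was seen in 1 of the 9 members, Actb, over all 10 libraries, where 0.754% of the 12992 genes tested had every EE library above every SD library and 0.485% had every one below. Over 9 libraries it was seen in 3 of the 9, Actb, Cfl1 and Myl6, beside 2.12% of all genes above and 1.55% below. At an unadjusted p under 0.05 by limma, a linear model with shared variance, 1 of the 9 members was higher in EE over 10 libraries, where 3.35% of all genes were higher and 4.05% were lower, and 3 of the 9 over 9 libraries, where 5.15% were higher and 5.24% lower. No member was lower at that threshold in either set. Since this contrast chose the list, nothing is read from these counts. No gene of the 12992 passed an adjusted p of 0.05 over 10 libraries (0%), with 435 genes higher and 526 lower at an unadjusted p under 0.05, and 1 gene, which was no member, passed over 9 (0.00772%). The paper did report genes past an adjusted p of 0.05, by DESeq2, which is another test than limma on the deposited log2 values.

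The split of those calls moved with the scaling, and Actb did not change sign with it. Of the calls over 10 libraries, 45.3% were higher in EE on the deposited scale, 56.6% after median centring, 63.4% after quantile normalization and 83.4% when each library was scaled to its counts outside the 5 casein genes. The log2 difference of Actb was 0.55 after median centring, 0.56 after quantile normalization and 0.65 outside the caseins. Caseins, the main milk proteins, took 59.3% ± 1.82 of all normalized counts in SD (standard deviation, n = 5) and 50.9% ± 8.39 in EE (standard deviation, n = 5), with the lowest shares in EE replicate 3 at 44.1% and EE replicate 5 at 40.4%. The difference of -8.39 percentage points gave p = 0.0556 in a two-sided exact permutation test (0.131 adjusted over 3 library measures), and -8.12 points with p = 0.127 over 9 libraries. It was -2.67 points (exact permutation p = 0.214) without EE replicates 3 and 5 and -10.9 points (exact permutation p = 0.00794) without EE replicate 4. The smallest p that 5 libraries against 5 can give in this test is 0.00794. With the casein share as a covariate the difference in Actb was 0.62, and its part in the result was not otherwise tested.

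Other rows of the actin family were also higher in EE at an unadjusted p under 0.05. Actin genes encode closely similar proteins, so some reads may be split between them or with pseudogene copies, and their counts are uncertain for that reason. How far their sequences match was not computed here. Acta1, skeletal muscle alpha-actin, had 1856, 1447, 1206, 1098 and 1202 normalized counts in SD replicates 1 to 5 and 2113, 2311, 1998, 1958 and 1831 in EE replicates 1 to 5. The groups met only at SD replicate 1, which exceeded EE replicate 5. The log2 difference was 0.58 with a standard error of 0.13 (limma, adjusted p = 0.506), and 0.51 over 9 libraries (adjusted p = 0.29).

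Acta2, smooth muscle alpha-actin and a marker of the contractile myoepithelial cells around the alveoli, had 1557 ± 288 normalized counts in SD (standard deviation, n = 5) and 2300.2 ± 283 in EE (standard deviation, n = 5). Its log2 difference was 0.55 with a standard error of 0.12 (limma, adjusted p = 0.506), and 0.52 over 9 libraries (adjusted p = 0.29). Actbl2, a beta-actin-like gene, had 610.4 ± 117 and 869.7 ± 96.5 normalized counts (standard deviation, n = 5 each), a log2 difference of 0.47 with a standard error of 0.13 (adjusted p = 0.506, and adjusted p = 0.349 over 9 libraries). For both genes SD replicate 1, at 2066 and 808 normalized counts, lay inside the EE range. None of these genes passed the adjusted threshold.

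As a share of the Actb count in the same library, these rows covered like ranges in both groups. Acta1 stood at 4.58% to 5.91% of Actb in SD and at 5.15% to 5.88% in EE, Acta2 at 5.56% to 6.58% and 5.58% to 6.90%, and Actbl2 at 2.04% to 2.59% and 2.10% to 2.67%. The ranges overlapped for all 3 genes. These are ratios of counts, not of molecules per length, and no test was made of them. Actg2, smooth muscle gamma-actin, was low, with 22.0 ± 21.5 normalized counts in SD and 13.2 ± 3.92 in EE (standard deviation, n = 5 each), and its log2 difference of -0.09 (adjusted p = 0.94) changed sign on other settings.

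**Figure D2:**
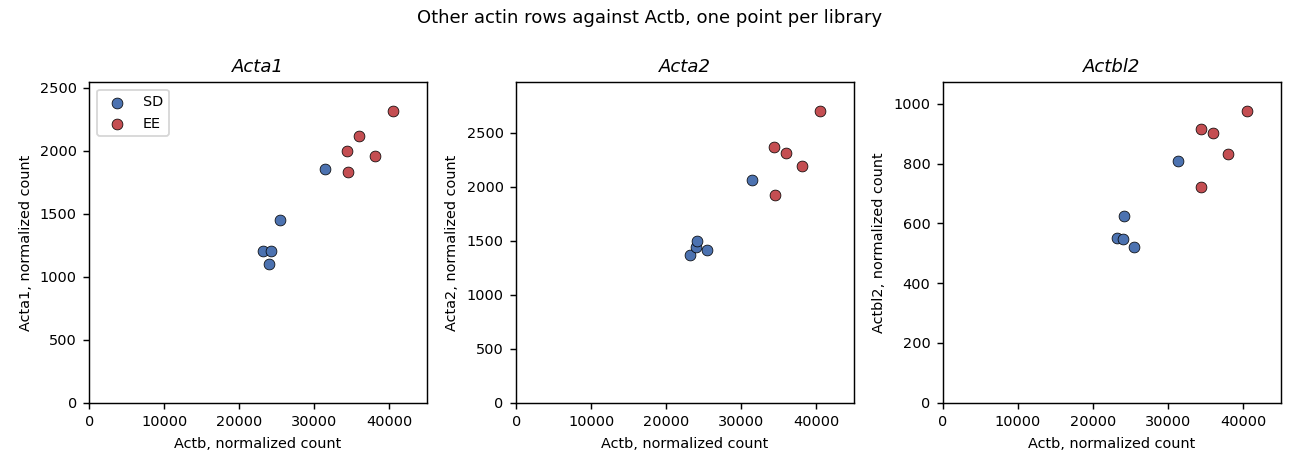
Normalized counts of Acta1, Acta2 and Actbl2 (vertical axes) against that of Actb (horizontal axes), 1 point per library. In each panel the count rises with that of Actb from the SD to the EE libraries, and SD replicate 1, with 31387 counts of Actb, is the SD point nearest to the EE points.

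Acta2 also sits in the list of myoepithelial markers, and the summed level of the markers other than Acta2 and Actg2 had a lower mean in EE. The summed level of the 10 markers was 2364 ± 596 in SD (1674 to 3275) and 2913 ± 217 in EE (2663 to 3154; standard deviation, n = 5 each), with p = 0.0873 in a two-sided exact permutation test (0.131 adjusted over 3 library measures) and p = 0.159 over 9 libraries. Without SD replicate 1 the difference in this sum was 777 (exact permutation p = 0.00794). Acta2 made up 59.1% to 87.3% of that sum in the 10 libraries. Without Acta2 and Actg2, a split chosen after the values were seen, the sum was 785 ± 330 in SD and 599.5 ± 161 in EE (standard deviation, n = 5 each; exact permutation p = 0.294). Most of that remaining sum was Mylk, which averaged 472 in SD and 419 in EE (log2 difference -0.04, limma, adjusted p = 0.983). Myh11, smooth muscle myosin heavy chain, was lower in EE by limma at an unadjusted p under 0.05 (log2 difference -0.62, adjusted p = 0.561). The oxytocin receptor gene Oxtr averaged 2.15 normalized counts in SD and 5.90 in EE. The basal keratins Krt5 and Krt14 averaged 20.9 and 34.05 normalized counts in SD and 19.9 and 17.7 in EE, but SD replicate 4 alone held 68.1 and 122, and without it the SD means were 9.07 and 12.1, below those of EE.

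The promoters of Cfl1, Pfn1, Tmsb10 and Myl6 are shown because these members, described next, varied together across the libraries, mostly through SD replicate 4. They are the 250 bases before the annotated start in RefSeq build GRCr8, 5′ to 3′ on the strand of the gene, with matches to a CCAAT box (CCAAT, both strands) or a GC box (GGGCGG, both strands) in capitals. They lie at chr1:212226874-212227123 on the plus strand (Cfl1), chr10:55866588-55866837 on the minus strand (Pfn1), chr4:106569141-106569390 on the minus strand (Tmsb10) and chr7:1498344-1498593 on the minus strand (Myl6).
Cfl1: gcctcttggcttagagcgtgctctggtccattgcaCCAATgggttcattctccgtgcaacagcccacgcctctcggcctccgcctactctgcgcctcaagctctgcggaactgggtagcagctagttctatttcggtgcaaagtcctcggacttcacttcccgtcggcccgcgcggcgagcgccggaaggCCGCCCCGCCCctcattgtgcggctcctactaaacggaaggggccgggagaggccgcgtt
Pfn1: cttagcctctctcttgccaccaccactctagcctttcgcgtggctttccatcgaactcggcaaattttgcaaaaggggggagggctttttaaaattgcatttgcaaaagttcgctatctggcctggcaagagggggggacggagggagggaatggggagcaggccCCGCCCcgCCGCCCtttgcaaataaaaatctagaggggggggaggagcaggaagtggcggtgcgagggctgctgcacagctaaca
Tmsb10: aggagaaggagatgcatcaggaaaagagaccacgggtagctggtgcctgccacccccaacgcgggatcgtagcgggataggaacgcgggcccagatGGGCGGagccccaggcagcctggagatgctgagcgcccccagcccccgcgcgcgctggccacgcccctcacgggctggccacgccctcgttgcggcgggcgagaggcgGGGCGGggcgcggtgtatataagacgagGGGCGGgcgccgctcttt
Myl6: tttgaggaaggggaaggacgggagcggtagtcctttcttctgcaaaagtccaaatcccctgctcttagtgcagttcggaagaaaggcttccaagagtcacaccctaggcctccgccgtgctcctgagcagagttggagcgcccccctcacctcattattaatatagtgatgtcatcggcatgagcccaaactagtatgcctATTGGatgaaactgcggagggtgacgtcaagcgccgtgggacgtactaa

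Both kinds of match are common in promoters as a whole. Cfl1 and Myl6 each held 1 CCAAT match, 215 and 49 bases before the start, and Cfl1, Pfn1 and Tmsb10 held 2, 2 and 3 GC boxes. Promoters of 9 of the 10 members were matched in the RefSeq table used here, which is without an entry for Actb. Among them 4 held a CCAAT box, as did 34.02% of 33469 promoters, and 6 held a GC box, as did 30.5%. None held the exact letters TATAAA, which 12.9% of promoters did. Other TATA-like letters were not counted, and the Tmsb10 window printed above holds tatataag close before the annotated start. Of the 9 member promoters 1, that of Actg1, held a CArG box, the site of serum response factor, which 1.497% did. Outside the members, Acta1 held 1 CArG box, 94 bases before the start, and Acta2 and Actbl2 held 0. A match is a description of letters in this window, not a site in use.

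The members that bind actin monomers or sever filaments overlapped between the groups over all 10 libraries. Cfl1 (gene ID 29271, chromosome 1), the nonmuscle cofilin, had 5775, 5600.0, 5969.9, 8623 and 4538 normalized counts in SD replicates 1 to 5 and 6163, 6269, 6891, 6893 and 6381 in EE replicates 1 to 5. Every EE library lay above 4 of the SD libraries and below SD replicate 4. The log2 difference was 0.12 with a standard error of 0.14, and 0.26 with a standard error of 0.089 without SD replicate 4, so that 1 library moved it by more than 1.5 times.

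Pfn1 (gene ID 64303, chromosome 10), profilin, was nearly level. Its normalized counts were 8821, 8138, 9103, 12369.9 and 8043 in SD replicates 1 to 5 and 8648, 9159, 8694, 9887 and 9749 in EE replicates 1 to 5, and the ranges overlapped with and without SD replicate 4. The log2 difference was 0.0058 with a standard error of 0.12, and 0.11 with a standard error of 0.075 over 9 libraries.

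The thymosins, small peptides that hold actin monomers, were uneven across the SD libraries, Tmsb10 through SD replicate 4. Tmsb10 (gene ID 50665, chromosome 4) had 1946, 2526, 2727, 6855 and 2095 normalized counts in SD replicates 1 to 5 and 2614, 2331, 2216, 2709 and 2809.5 in EE replicates 1 to 5. SD replicate 4 held 2.95 times the mean of the other SD libraries and alone set the sign of the difference, which was -0.18 with a standard error of 0.27 on the log2 scale with it and 0.13 with a standard error of 0.11 without it. Tmsb4x (gene ID 81814, chromosome X), the main thymosin of blood cells, ran from 1118 to 3591 in SD and from 1616 to 2420.3 in EE, with a log2 difference of -0.28 (standard error 0.26), or -0.14 (standard error 0.25) over 9 libraries. Its EE libraries all lay inside the SD range.

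Of the myosin light chains, Myl6 (gene ID 685867, chromosome 7), the essential light chain of nonmuscle myosin II, had 10601, 10277, 9760.0, 14092 and 9289 normalized counts in SD replicates 1 to 5 and 12467, 11465, 12445, 12472 and 11744 in EE replicates 1 to 5. All EE libraries were above SD replicates 1, 2, 3 and 5 and below SD replicate 4. The log2 difference was 0.18 with a standard error of 0.11, and 0.28 with a standard error of 0.070 over 9 libraries, which again is a shift of more than 1.5 times through 1 library. Myl12a (gene ID 501203, chromosome 9), a regulatory light chain whose phosphorylation switches the motor on, ranged less widely, at 3098 to 3857 in SD and 3509 to 3994 in EE, with a log2 difference of 0.10 (standard error 0.083), or 0.11 (standard error 0.080) over 9 libraries.

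Arpc1b (gene ID 54227, chromosome 12), a subunit of the Arp2/3 complex, and Ezr (gene ID 54319, chromosome 1), ezrin, which ties actin to the apical membrane of epithelial cells, overlapped between groups. Arpc1b had 8722 to 13422 normalized counts in SD and 8365 to 13675 in EE (log2 difference 0.10, standard error 0.15, and 0.13, standard error 0.16, over 9 libraries). Ezr had 3364, 1769.6, 2632, 4167 and 4296 in SD replicates 1 to 5 and 2381, 2901, 2954, 2462 and 3313 in EE replicates 1 to 5 (log2 difference -0.15, standard error 0.21). Without SD replicate 4 the difference in Ezr was -0.043 (standard error 0.21), and without SD replicate 5 it was -0.032, so that either library moved it by more than 1.5 times. The lowest and the highest Ezr library were both SD libraries.

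**Figure D3:**
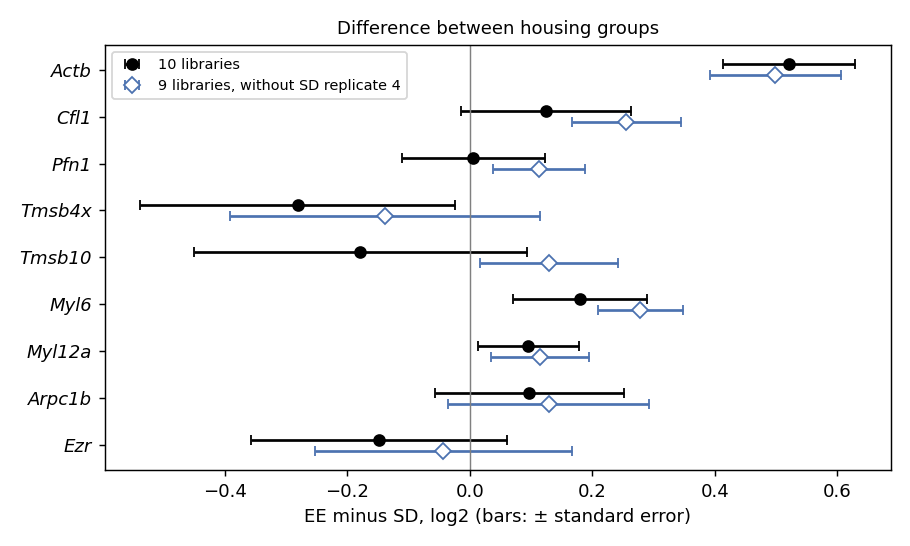
Log2 difference, EE minus SD, of each member (points) with its standard error (bars), over 10 libraries in black and over 9 libraries without SD replicate 4 as open diamonds. Actb lies near 0.5 in both sets, the other members lie between -0.28 and 0.28, and Tmsb10 changes sign between the sets.

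Set against Actb in the same library, all 8 other members had a lower mean share in EE. A gene whose count rises less than that of Actb generally has a lower share, so nothing is read from this count. Pfn1 was 28.1% to 51.6% of the Actb count in SD and 22.6% to 28.3% in EE, and Cfl1 was 18.4% to 35.99% and 15.5% to 20.1%. Myl12a was 12.2% to 15.3% in SD and 9.33% to 11.6% in EE, and Arpc1b was 35.3% to 48.6% and 24.3% to 35.1%. The counts of both genes themselves overlapped between the groups. How often the share of any gene separates the groups was not counted. Since Actb chose the list, these shares carry its difference and are given with no test.

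The deviations of each library from its group mean show how the members varied apart from housing. Over the 36 pairs of members the median Pearson r of these deviations was 0.33, with 30 pairs positive, across 10 libraries, each pair being read from the same libraries and so sharing their depth and size factors. It was 0.16, with 26 pairs positive, without SD replicate 4. The pairs among Cfl1, Pfn1, Tmsb10 and Myl6, a group chosen after its values were seen, had r from 0.84 to 0.92 over 10 libraries and from -0.09 to 0.64 over 9. These 4 genes and Tmsb4x were highest in SD replicate 4, that is 5 of 9 members, where 22.4% of the 8136 genes with a mean normalized count of at least 100 were. The luminal keratins Krt8 and Krt18 summed to 20365 in that library and to 10348 to 14518 in the others.

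Actb was not part of that group. Its median r with the other 8 members was -0.07 over 10 libraries, with 2 pairs positive, and 0.17 over 9, with 7 pairs positive, and its closest member was Arpc1b at 0.61. Tmsb4x and Ezr varied together at 0.95 with all libraries and 0.93 without SD replicate 4. Leukocyte markers were also uneven across libraries: 13 of 14 listed genes had a row, the B cell gene Cd79b was at 0 in every library, and their summed level was 993 to 3836 in SD and 1063 to 2905 in EE (difference -624, two-sided exact permutation p = 0.31, and p = 0.484 over 9 libraries). Laptm5, Cd74 and Lyz2 were the largest parts of that sum, with means of 751, 680 and 618 in SD and 694, 358 and 457 in EE. Ptprc (138 and 149), Cd3e (12.8 and 24.4), Itgam (42.3 and 44.1) and Ms4a1 (0 and 0.14) had a higher mean in EE. The sum is therefore not the level of every leukocyte gene. SD replicate 2 was the lowest SD library for Tmsb4x, Ezr and the leukocyte sum alike. EE replicate 1, in contrast, had the highest leukocyte sum of its group, 2905, with the lowest Ezr count, 2381, and a Tmsb4x count of 1641, and the part of leukocyte RNA in these members was not tested.

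**Figure D4:**
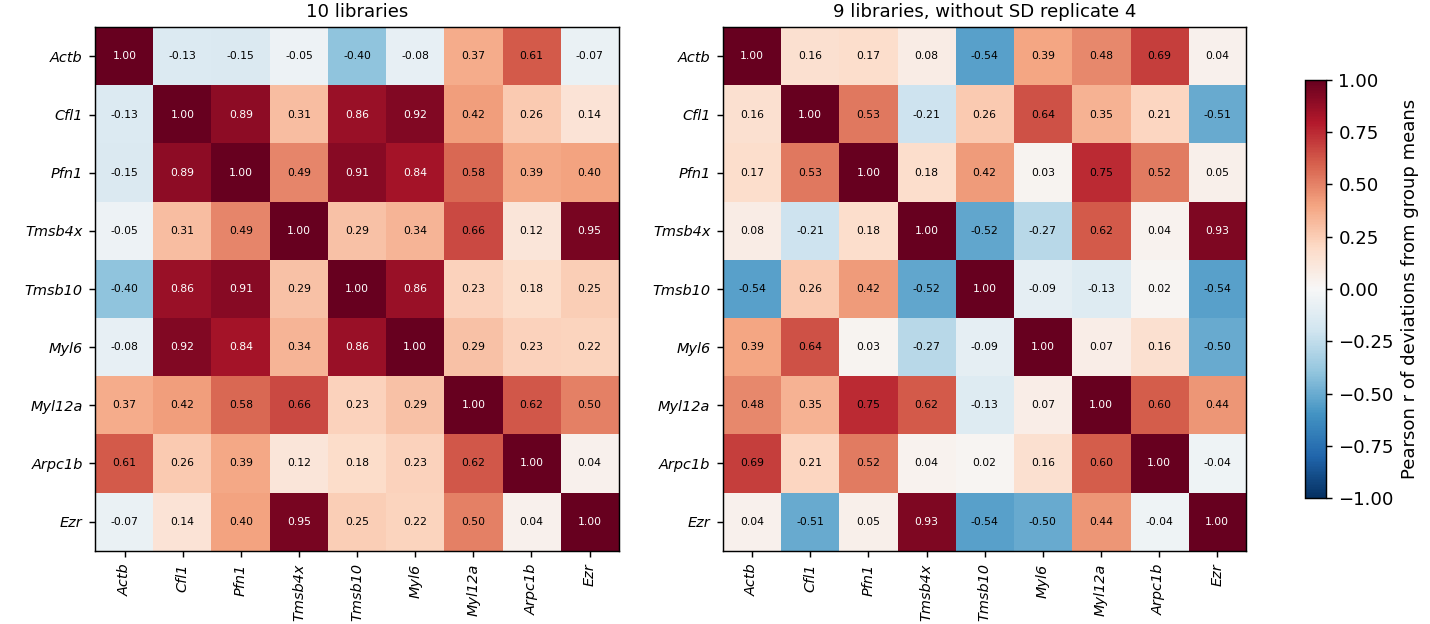
Pearson r of deviations from the group mean for each pair of members, over 10 libraries (left) and over 9 without SD replicate 4 (right), with colour from -1 to 1. The block of high values among Cfl1, Pfn1, Tmsb10 and Myl6 is lost in the right panel, while Tmsb4x and Ezr stay at 0.93.

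Among 8135 other genes with a mean normalized count of at least 100, those whose deviations most resembled those of Actb were Spart (r = 0.94), which encodes spartin, Prkcz (0.93), an atypical protein kinase C, Sco1 (0.91), a copper chaperone of cytochrome c oxidase, Ankrd6 (0.91) and Mindy1 (0.90), a deubiquitinase. Acta1 followed at rank 6 with 0.90, Acta2 at rank 17 with 0.87 and Actbl2 at rank 104 with 0.76. Without SD replicate 4 the 5 highest were Manbal (0.96), Spart (0.95), Xpnpep1 (0.95), Prkcz (0.93) and Acta1 (0.92), so that the order depends on that library. The first 5 over 10 libraries had log2 differences between the groups of -0.24 to 0.08, beside 0.47 to 0.58 for the actin rows.

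The wider actin machinery, 184 genes in 12 lists outside the members, was split in direction. Of 158 genes tested, 83 had a positive and 75 a negative difference, 9 were higher in EE (5.70%, beside 3.35% of all genes) and 3 were lower (1.90%, beside 4.05%) at an unadjusted p under 0.05 by limma, and none passed the adjusted threshold. Their median log2 difference was 0.01, beside -0.0087 over all genes tested. Over 9 libraries 15 were higher (9.49%, beside 5.15% of all genes) and 7 lower (4.43%, beside 5.24%), with a median of 0.03. Of the 9 higher genes, 3 were the actin rows Acta1, Acta2 and Actbl2 described above. Some reads of these 3 may be split with Actb, so they cannot be taken as independent of the gene that chose the list. The share of higher genes includes them and is a description only.

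Filament assembly genes showed no call over 10 libraries. None of the 8 tested genes of the Arp2/3 complex (median 0.08), of its 16 activators (median 0.01) or of 9 formins and other nucleators (median -0.05) passed an unadjusted p of 0.05. Arpc1a, the second form of the subunit that Arpc1b encodes, had a log2 difference of -0.17 (adjusted p = 0.71). Without SD replicate 4 the complex subunits Arpc3 and Arpc4, which had been 0.11 and 0.16 over all libraries, were 0.25 (adjusted p = 0.376) and 0.23 (adjusted p = 0.415), both then past an unadjusted p of 0.05. In those 9 libraries 1 activator, Washc1, was higher and 2, Abi1 and Abi2, were lower at that threshold, and the median was 0.04 for the complex, -0.018 for the activators and 0.052 for the nucleators, so that the last 2 medians changed sign with 1 library.

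Among 21 genes of monomer binding, severing and turnover, 2 were higher in EE at that threshold (median 0.06, and 0.07 over 9 libraries). Coro2a, a coronin, had 393 ± 100.3 normalized counts in SD and 595 ± 85.0 in EE (standard deviation, n = 5 each; log2 difference 0.53, limma, adjusted p = 0.506), and a difference of 0.47 (adjusted p = 0.396) over 9 libraries. Wdr1, which helps cofilin take filaments apart, had 4315 ± 189 and 4833 ± 191 in SD and EE (standard deviation, n = 5 each; log2 difference 0.16, adjusted p = 0.66), and its unadjusted call was lost in 12 of 19 other settings. Cfl2, the muscle cofilin, had a log2 difference of 0.24 (adjusted p = 0.687), and Pfn2 was not analysed here. Of 9 capping genes, Capzb, the beta subunit of capping protein, was higher, at 0.15 (adjusted p = 0.672, unadjusted call lost in 13 of 19 settings), with a list median of -0.03, or -0.04 over 9 libraries. Wdr1 and Capzb both had a difference of 0.16 over 9 libraries.

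The list of 19 tropomyosins, crosslinkers and bundlers held calls in both directions and had a median of -0.13, or -0.05 without SD replicate 4. Tpm3, a tropomyosin that coats cytoplasmic filaments, had 8825, 10611, 10521, 8555 and 8614 normalized counts in SD replicates 1 to 5 and 12118, 12231, 12993, 11493 and 10678 in EE replicates 1 to 5. The groups did not overlap for Tpm3, nor for Wdr1, Capzb and, in the lower direction, Cald1. Over all genes tested, 0.754% had every EE library above every SD library and 0.485% had every one below. The log2 difference of Tpm3 was 0.34 with a standard error of 0.095 (limma, adjusted p = 0.506). Cnn3, a calponin, was 0.37 higher on the log2 scale (adjusted p = 0.657, unadjusted call lost in 5 of 19 settings). Cald1, caldesmon, was lower in EE with 309 ± 44.0 normalized counts against 419 ± 52.1 in SD (standard deviation, n = 5 each; log2 difference -0.36, adjusted p = 0.592), and Actn1, an alpha-actinin, was lower by the same log2 difference of -0.36 (adjusted p = 0.592). The unadjusted calls of both were lost in 1 of 19 settings. Over 9 libraries the differences were 0.30 for Tpm3, 0.43 for Cnn3, -0.40 for Cald1 and -0.33 for Actn1.

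Among the 11 tested genes of nonmuscle myosin II and its kinases none passed the threshold over 10 libraries (median 0.01, but -0.11 without SD replicate 4). The regulatory light chain Myl12b, a near copy of Myl12a, had a log2 difference of 0.02 (adjusted p = 0.977), and of 0.17 (adjusted p = 0.4661, unadjusted p under 0.05) without SD replicate 4, which held 1.70 times the mean of the other SD libraries. Myl9, the smooth muscle form, averaged 28.4 and 9.16 normalized counts in SD and EE, and its difference of -0.43 did not pass (adjusted p = 0.766). Of 19 membrane-cortex linkers, 1 was lower, Sptan1, a spectrin of the membrane skeleton (-0.24, adjusted p = 0.654, unadjusted call lost in 9 of 19 settings), with a median of -0.08. Without SD replicate 4 the median was -0.03, Sptan1 stood at -0.24, and Slk, a kinase that acts on ezrin, was also lower. The ezrin relatives Msn and Rdx had log2 differences of 0.01 (adjusted p = 0.993) and -0.31 (adjusted p = 0.763).

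The 10 tested genes of serum response factor and its targets had a median of -0.17, with 3 positive. None of these 10 passed an unadjusted p of 0.05 (median -0.11 over 9 libraries, again with none). This list leaves out actin genes, which the factor is known to drive. Acta1 and Acta2, with log2 differences of 0.58 and 0.55, were placed among the muscle and other actins. Its median is therefore not that of all targets of the factor. The partners Mrtfa and Mrtfb were not among the tested genes. Srf itself, the factor that is known to drive actin genes, had 1331 ± 162 normalized counts in SD and 1351 ± 31.9 in EE (standard deviation, n = 5 each; log2 difference 0.03, adjusted p = 0.96). None of 16 genes of actin folding and modification passed over 10 libraries (median 0.07), and without SD replicate 4 the median was 0.11 and 1, the prefoldin subunit Pfdn1, was higher. Among the 7 muscle and other actins, 3 were called, the rows Acta1, Acta2 and Actbl2 above (42.9%, beside 3.35% of all genes). The median of these 7 genes, 0.22, was the value of Actc1, which had reads in EE replicate 2 only (27.6 normalized counts).

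Actb is often used as a reference gene for expression, and 15 of 16 other genes in such use were tested beside it. Of these, 5 had a positive difference and the median was -0.09, or -0.05 over 9 libraries. All lay below the 0.52 of Actb, which the choice of Actb by this contrast largely fixed and which is given as a description. Pgk1, a glycolytic enzyme, was higher in EE with 8862 ± 945 normalized counts against 6829 ± 1258 in SD (standard deviation, n = 5 each; log2 difference 0.38, limma, adjusted p = 0.587), and Rplp0, a ribosomal stalk protein, was lower (-0.27, adjusted p = 0.653, unadjusted call lost in 8 of 19 settings). Gapdh, another glycolytic enzyme, had a difference of 0.26 (adjusted p = 0.785) that became 0.41 (adjusted p = 0.4, unadjusted p under 0.05) without SD replicate 4, and Eef1a1, a translation factor, one of -0.24 (adjusted p = 0.795). No reference gene passed the adjusted threshold.

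**Figure D5:**
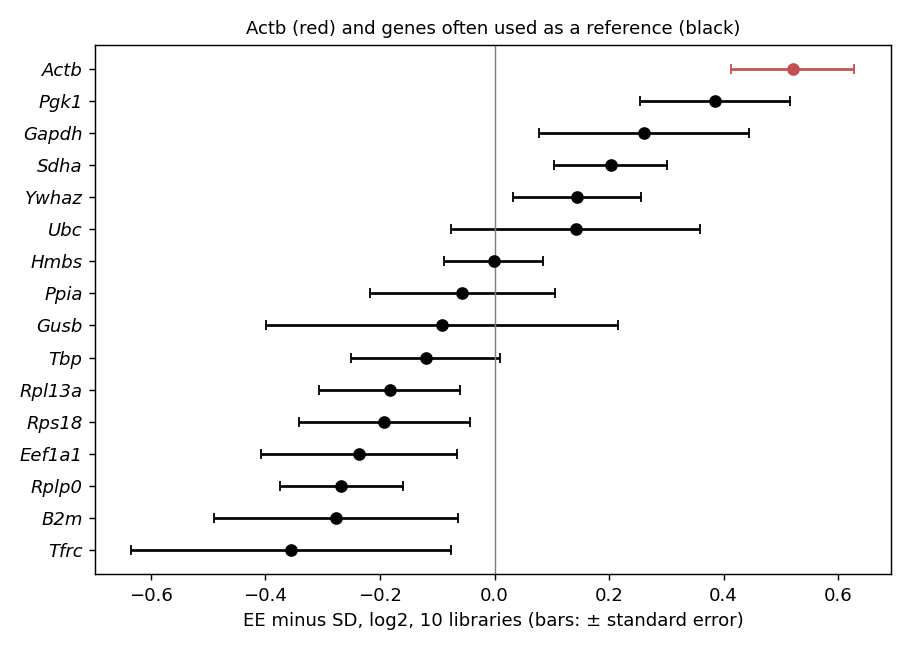
Log2 difference, EE minus SD, over 10 libraries (points) with its standard error (bars) for Actb in red and for 15 genes often used as a reference in black, ordered by size. Actb, chosen by this contrast, is at 0.52, and Pgk1 is next at 0.38.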

How the data were processed

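Milk fat RNA was measured by RNA-sequencing in 5 SD and 5 EE libraries, and groups were taken from the labels, which do not state whether each library came from 1 dam. The authors aligned reads to rn6 and used DESeq2 (submitters' processing notes). The deposited log2 values are called rlog by the authors, but all genes without reads share the value 5.46 and the rest behave as a variance-stabilizing transformation. It was inverted to normalized counts, whose low values came out whole within 0.1 read for 89.7% to 98.0% of genes below 10 reads. The authors' mean normalized signal per gene, deposited for 1354 genes, differed least from the 9 libraries without SD replicate 4 (standard deviation of the log2 ratio 0.0220, against 0.0807 for all 10 and 0.0973 to 0.164 leaving out any other). Columns of the authors' own fold changes and p-values were not used.

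Genes with 1 value in all libraries (3756) were left out. EE was compared with SD on the log2 values by limma 3.58.1 (R 4.3.3) with a variance trend and Benjamini-Hochberg adjustment over 12992 genes (12955 without SD replicate 4). Standard errors are those of limma. For the 3 library measures, an exact permutation test (two-sided) enumerated 252 arrangements, or 126 over 9 libraries. The fit was tested on simulated data. The members and lists were chosen with earlier results of these data known. Named outside the members are paralogs, reference genes, up to 4 genes per list at an unadjusted p under 0.05, and the 5 genes most like Actb. Further genes (Arpc3, Arpc4, Washc1, Abi1, Abi2, Slk, Pfdn1, Srf and markers) were named after their values were seen. Promoters come from RefSeq GRCr8, another build than that of the files. Alternatives were leaving out libraries, the replicate number as a block, other scalings, a pseudocount of 1, a minimum mean count of 10, no variance trend and the casein share as covariate. Of the wider lists, 1 is counted in the totals but its own result is not reported here. Transcript lengths were not used, so counts of different genes, and their ratios to Actb, are not levels per length.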

Additional observations from a re-analysis of the deposited data

Results flagged for a closer look

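In 5 of 30 groups of 5 values, 1 library lay far from the other 4 of its group by Dixon's criterion, where chance alone gives about 1 in 20. The 30 groups reuse the same 10 libraries in genes that in part vary together. The flags are therefore not independent, and no excess is read from their number. SD replicate 1 stood above the other SD libraries for Actb, at 31387 normalized counts, and for Acta2, at 2066. SD replicate 4 stood above them for Pfn1, at 12369.9, for Tmsb10, at 6855, and for Myl6, at 14092. Without SD replicate 1 the log2 difference of Actb between housing groups was 0.60, and without SD replicate 4 that of Pfn1 was 0.11, that of Tmsb10 was 0.13 and that of Myl6 was 0.28.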

How the results depend on the processing

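Over the 19 alternatives the log2 difference of Actb stayed between 0.48 and 0.65, that of Myl6 between 0.13 and 0.31, that of Cfl1 between 0.03 and 0.26, that of Arpc1b between 0.03 and 0.31, that of Myl12a between 0.06 and 0.23, that of Ezr between -0.34 and -0.02 and that of Tmsb4x between -0.54 and -0.14. Pfn1 ran from -0.04 to 0.14 and Tmsb10 from -0.31 to 0.13, positive only without SD replicate 4. Leaving out 1 library at a time gave 292 (without EE replicate 3) to 667 (without SD replicate 4) genes higher and 333 (without EE replicate 3) to 679 (without SD replicate 4) lower in EE, and among wider actin genes 6 to 15 higher and 2 to 7 lower. Those with 15 higher and 7 lower were both without SD replicate 4, and 7 were also lower without EE replicate 5, with 5 lower without SD replicate 2. Quantile normalization gave 678 genes higher and 15 wider actin genes higher. Counts outside the caseins gave 1071 higher, 213 lower, 27 wider actin genes higher and 0 lower. Without EE replicates 3 and 5 there were 7 wider actin genes lower, and 11 with the casein share as covariate. The causes were not tested. The casein difference ran from -10.9 points (without EE replicate 4, exact permutation p = 0.00794) to -5.78 leaving out 1 library, and was -2.67 (exact permutation p = 0.214) without EE replicates 3 and 5. The myoepithelial sum ran from 377 to 777 (without SD replicate 1, exact permutation p = 0.00794), was -185 without Acta2 and Actg2, and as a mean of log2 values was -0.077. The leukocyte sum ran from -1017 to -306. The median r of member pairs fell to 0.16 without SD replicate 4. Among single genes, Actg2 ran from -0.25 to 0.076 (without SD replicate 1) leaving out 1 library and was 0.064 on log2 of the normalized count plus 1. Msn ran from -0.14 to 0.21 leaving out 1 library, was -0.20 without EE replicates 3 and 5 and -0.37 with the casein share as covariate. Myl12b ran from -0.038 to 0.17.

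Between SD and EE libraries of equal replicate number, correlations of deviations were -0.09 to 0.28 over the 5 numbers, highest for replicate 5. These values cannot decide whether some libraries were paired, and a shared batch was not tested. With the replicate block, 402 genes were higher and 698 lower, with 7 wider actin genes higher and 4 lower.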

Other observations

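Markers of other cell types were summed in each library. Summed normalized counts were 45.7 to 161 in SD and 48.6 to 200.7 in EE for 7 neutrophil genes (Mpo and Elane at 0), and 0 to 13.6 over all libraries for 5 fibroblast genes. For 6 endothelial genes (Emcn at 0) they were 53.8 to 150.0 in SD and 43.4 to 131 in EE, and for 4 erythrocyte genes 12.8 to 96.1 and 10.3 to 383. The 5 adipocyte genes summed to 197 to 501 in SD and 122 to 306 in EE, nearly all of it Cfd, a complement factor that other cells express too. The 8 secretory luminal genes summed to 15198700 to 21517200 in SD and 6934080 to 19394400 in EE. Nearly all of this was the milk protein genes Csn2, Wap and Lalba. The others differed in direction: Elf5 averaged 53534 in SD and 54879 in EE, and Krt8 7122 and 7214. Krt18 averaged 6380 and 5655, Epcam 8875 and 6297, and Cdh1 3448 and 2860.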
